A study of Mus musculus with 6 samples.

Results

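The zinc-finger genes that carry a Zfp symbol, most of which encode C2H2 proteins, are examined here in mouse group 2 innate lymphoid cells (ILC2s), lung-resident lymphocytes that release type 2 cytokines, cultured with or without melatonin. Members were the protein-coding genes whose symbol is Zfp followed by a digit and whose normalised count averaged at least 50 over the 6 samples, leaving out Zfp36, Zfp36l1 and Zfp36l2, which encode CCCH-type RNA-binding proteins, and adding Gm4724 by name. The members were thus chosen by their mean over both groups, and the windows below and Gm4724 with the difference between the groups in view. Of 419 such symbols in the annotation, 360 were listed and 278 reached that mean; without the 3 excluded genes and with Gm4724, 276 genes remained of 16381 listed. The 2 members with the lowest means were Zfp449 at 50.5 and Zfp995 at 50.8, and the highest means that fell short were Zfp459 at 48.0 and Zfp965 at 47.7. A mean taken over both groups can be carried by the group in which a gene is high, and 258 members averaged at least 50 in each group separately.

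All 6 samples were ILC2s of WT genotype from lung. Per the study's methods the mice were female BALB/cJ aged 6 to 8 weeks, a strain without its own melatonin, and received 0.5 µg of recombinant IL-33 into the nose each day for 3 days before the cells were sorted. The cells were cultured for 24 h with 250 µM melatonin (3 samples) or with an equal volume of its solvent DMSO (3 samples, called vehicle), and RNA was sequenced in bulk. No source used here says whether the 3 samples of a group came from separate mice or cultures, so that p-values measure the spread among these samples. The library names also differ between the groups, with the numbers 20 to 22 for melatonin and 32v1 to 34v1 for vehicle; what these mark is not given in the sources used here, and it cannot be told apart from the treatment.

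Most mouse Zfp genes encode proteins whose tandem C2H2 fingers each hold a zinc ion and read a few bases of DNA. Many of them begin with a KRAB domain, which recruits TRIM28 and through it the histone methyltransferase SETDB1, HP1 proteins and histone deacetylases, so that these proteins are best known as silencers of retroelements and of imprinted loci. They arose largely by tandem duplication, lie in clusters, and neighbouring copies can be nearly identical. Zfp proteins without KRAB are a mixed class that includes promoter-binding activators and RNA-binding proteins.

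The summed level of 4 Y-linked transcripts was between 2680 and 3038 normalised counts in all vehicle samples and melatonin sample 1 and 0 in melatonin samples 2 and 3, although the methods name female mice. The female-specific long noncoding RNA Xist was at 0 in melatonin sample 1, 579 and 1091 in melatonin samples 2 and 3, and 5.81 to 13.6 in the vehicle samples. The ILC2 markers Gata3 (17890 to 24588 normalised counts) and Il1rl1 (7698 to 16787) were high in every sample. Of the list of 10, Il1rl1 (10498 to 16787 against 7698 to 8735) and Rora (5760 to 7796 against 4000 to 4546) were higher with melatonin, Gata3 and Icos overlapped between groups and the 6 others were lower, among them Thy1 (34.6 to 65.3 against 356 to 421), Klrg1 (1491 to 1536 against 6207 to 7361) and Il7r (699.7 to 1655 against 1811 to 2103), and the sum of the list was 105390 to 110240 against 136049 to 147334. Over the listed markers of other cells, the summed level was 1318 to 1825 with melatonin and 3642 to 3965 with vehicle for T cells (3 of 5 genes, mostly Trbc2; Cd4 and Cd8a were not listed), and 364 to 796 against 1402 to 1564 for myeloid cells (5 of 5 genes). For eosinophils (1 of 3 genes; Prg2 and Epx were not listed) no sum exceeded 7.34, and for epithelium (3 of 3) the sums were 1022 to 1236 against 873 to 2068, with Sftpc (3.02 to 6.54 against 122 to 389) and Scgb1a1 (0 to 1.01 against 21.5 to 1045) lower and Epcam (1016 to 1230 against 623 to 745) higher with melatonin. The sort, per the methods, kept lineage-negative cells, which gates out T cells by CD3ε, CD4, TCRβ and TCRγδ and myeloid cells by CD11b, CD11c and Gr-1. The part of these differences in the results below was not tested, and in bulk RNA fewer cells of a type and less RNA per cell cannot be told apart.

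The members were more often higher than lower with melatonin. Of 276 members, 98 (35.5%) rose and 20 (7.25%) fell at an adjusted p under 0.05 (limma on log2(normalised count + 1), Benjamini-Hochberg over 14419 genes tested). Over all genes tested 24.5% rose and 24.7% fell, and over the 10007 protein-coding genes that averaged 50 or more, the class from which the members come, 31.0% rose and 25.0% fell. The share of members that rose was thus close to that of protein-coding genes at these levels, and the share that fell was smaller. Their median log2 fold change was 0.28, beside 0.06 for those protein-coding genes and -0.00 for all genes tested. Among the 258 members with a mean of at least 50 in each group, 90 rose and 14 fell.

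Most changes were modest. Of the 98 members that rose, 80 did so by less than 1 on the log2 scale and 18 by at least 1, and of the 20 that fell, 4 fell by at least 1. All 3 melatonin samples lay above all 3 vehicle samples for 127 members and below them for 32, where 36.7% and 29.8% of the protein-coding genes with a mean of at least 50 did so (30.0% and 30.3% of all genes tested). The median log2 difference of the members from the vehicle mean was 0.36, 0.29 and 0.21 in melatonin samples 1, 2 and 3. The median coefficient of variation of a member was 12.1% over the melatonin samples and 9.53% over the vehicle samples. With any 1 of the 6 samples left out in turn, 68 of the members that rose and 8 of those that fell were called in every fit.

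A KRAB domain was found in the translated protein of 166 members. Of these, 64 (38.6%) rose and 6 (3.61%) fell, with a median log2 fold change of 0.34. Of the 110 members without KRAB, 34 (30.9%) rose and 14 (12.7%) fell, with a median of 0.23. The summed level of the KRAB members was 54402, 50919 and 46967 normalised counts in melatonin samples 1, 2 and 3 and 38682, 39015 and 36486 in the vehicle samples, so that the groups did not overlap and the ratio of their means was 1.33. For the members without KRAB the sums were 73502, 70997 and 67415 against 61568, 62932 and 61778, a ratio of 1.14. The same ratio was 0.988 over the protein-coding genes with a mean of at least 50 and 0.974 over all genes tested. The 84 KRAB members with at least 12 fingers (33 rose, 1 fell, median 0.34) and the 82 with fewer (31 rose, 5 fell, median 0.32) had similar counts of rises. In 8 members no finger pattern was found, of which 0 rose and 2 fell. The difference between members with and without KRAB is a description and was not tested, and after a correction for GC content the medians were 0.25 and 0.245.

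**Figure D1:**
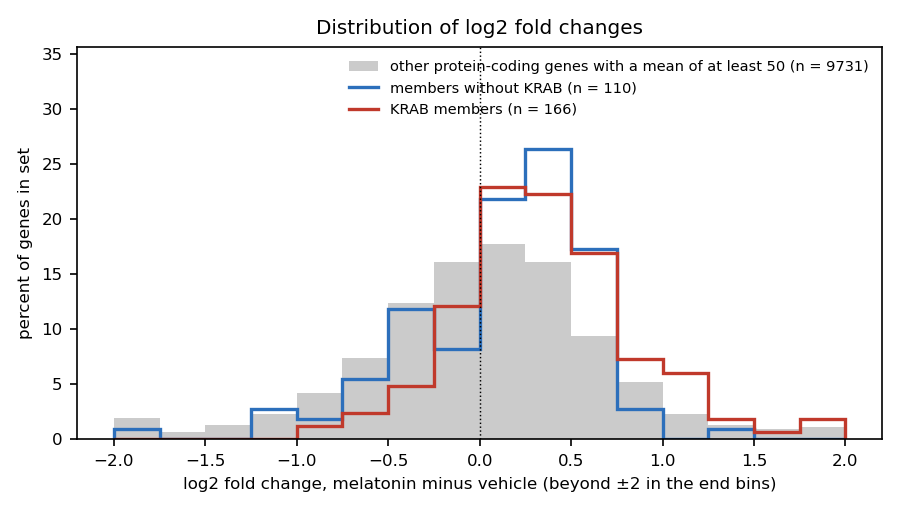
Percent of genes in each 0.25-wide bin of log2 fold change (melatonin minus vehicle) for the 166 KRAB members (red line), the 110 members without KRAB (blue line) and the 9731 other protein-coding genes with a mean of at least 50 (grey). Values below -2 or above 2 are counted in the end bins. The red curve lies to the right of the grey one, and the blue curve is narrower, above the grey one between 0 and 0.75 and mostly below it beyond: 79.5% of KRAB members had a positive value, beside 54.6% of all protein-coding genes at that level, members included.

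Genes of the same kind under other symbols were counted in the same fit. Of 37 further genes with a KRAB domain and a mean of at least 50, 13 (35.1%) rose and 1 fell (median log2 fold change 0.33), beside 31.0% and 25.0% of protein-coding genes at that level. Among them 2610008E11Rik averaged 366 normalised counts with melatonin and 197 with vehicle (log2 fold change 0.90, adjusted p = 0.00172), whereas Pogk, whose product pairs KRAB with a transposase-derived domain, averaged 68.3 against 156 (-1.23, adjusted p = 0.00521). Of 44 genes whose symbols begin with Zbtb, Zscan or Zkscan, most of which encode C2H2 proteins with a BTB or SCAN domain, 21 (47.7%) rose and 3 (6.82%) fell (median 0.44), and 4 of them are also among the 37.

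Most of the listed genes of the silencing machinery were not called. Of 24 listed KRAB cofactor and heterochromatin genes, 4 (16.7%) rose, 6 (25.0%) fell and 14 were not called (median log2 fold change -0.02). Of the protein-coding genes with a mean of at least 50, as all 24 have, 31.0% rose and 25.0% fell, and of all genes tested 24.5% and 24.7%. After a correction for transcript length, 10 of the 24 fell. The largest rise among those called was Resf1, which recruits SETDB1 to retroelements, at 2773, 2504 and 2612 normalised counts with melatonin and 1618, 1619 and 1307 with vehicle (log2 fold change 0.80, adjusted p = 0.0004), and the SETDB1 partner Atf7ip rose by 0.68. The largest fall was Chd3, a helicase of the NuRD deacetylase complex, at 408, 247 and 444 against 1387, 1134 and 1200 (-1.80, adjusted p = 0.000255), followed by the HP1 gene Cbx3 (-0.94). For Trim28 the values were 2083, 1866 and 1932 against 1990, 2485 and 3097, which overlap (-0.34, adjusted p = 0.0773). None of these comparisons is between the cofactors and the members.

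A pair of windows held members that were near 0 in vehicle. On chromosome 10 lie Zfp433, Zfp781b, Zfp873 and Zfp938, and on chromosome 2 lie Gm4724, Zfp968-ps, Zfp971 and Zfp931, all of them with a KRAB domain. Because these windows and Gm4724 were chosen with the treatment difference known, their values are a description. The 100 bases just upstream of the annotated start of 9 genes of these windows are shown to let the promoter sequences of genes that did and did not differ between the groups be compared. The member Zfp968-ps is not among the 9. The sequences are from the reference genome GRCm39 and were not read from the BALB/cJ mice of the study. They are written 5′ to 3′ on the strand of the gene, and capitals mark CCAAT, the box bound by NF-Y.
Zfp433, chr10:81540559-81540658, plus strand: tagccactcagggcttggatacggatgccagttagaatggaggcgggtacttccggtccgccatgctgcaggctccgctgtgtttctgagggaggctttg
Zfp781b, chr10:81766356-81766455, minus strand: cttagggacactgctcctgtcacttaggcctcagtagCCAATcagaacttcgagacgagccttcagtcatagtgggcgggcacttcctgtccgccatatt
Zfp873, chr10:81883823-81883922, plus strand: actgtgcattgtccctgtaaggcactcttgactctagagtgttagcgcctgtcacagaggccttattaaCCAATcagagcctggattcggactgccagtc
Zfp938, chr10:82077165-82077264, minus strand: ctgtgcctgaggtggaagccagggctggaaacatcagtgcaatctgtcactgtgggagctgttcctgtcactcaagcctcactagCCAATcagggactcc
Gm4724, chr2:175277601-175277700, minus strand: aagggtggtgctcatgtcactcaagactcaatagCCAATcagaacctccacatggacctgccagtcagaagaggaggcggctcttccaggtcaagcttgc
Zfp965, chr2:175311678-175311777, plus strand: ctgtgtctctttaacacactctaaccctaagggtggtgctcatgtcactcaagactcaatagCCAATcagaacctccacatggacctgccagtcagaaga
Zfp966, chr2:175722894-175722993, minus strand: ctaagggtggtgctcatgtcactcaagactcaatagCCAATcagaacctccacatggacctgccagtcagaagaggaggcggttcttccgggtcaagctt
Zfp971, chr2:177664942-177665041, plus strand: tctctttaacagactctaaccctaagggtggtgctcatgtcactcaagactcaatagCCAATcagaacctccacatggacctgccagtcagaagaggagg
Zfp931, chr2:177720295-177720394, minus strand: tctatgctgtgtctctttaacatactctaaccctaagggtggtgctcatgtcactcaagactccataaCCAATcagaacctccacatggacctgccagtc

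CCAAT stood in 8 of these 9 sequences, and Zfp433 had none in its 100 bases. Gm4724 and Zfp966 differed by 6 edits (substitutions, insertions or deletions) over these 100 bases, Gm4724 and its neighbour Zfp965 by 53, Gm4724 and Zfp781b, on different chromosomes, by 36, and Zfp433 and Zfp781b, on the same chromosome, by 56. These distances are counted from each annotated start, so that a shared stretch at another distance from the start adds edits. Zfp968 and Zfp973, which are not shown, were each 0 edits from Zfp965. Zfp965 and Zfp973 were called higher with melatonin and Zfp968 lower. Of their transcript words, 0% were unique for Zfp965 and Zfp968 and 11.0% for Zfp973. Zfp966, none of whose transcript words are unique, was at 22.0, 11.2 and 7.04 normalised counts with melatonin and 10.6, 17.8 and 19.1 with vehicle, and the groups overlapped. In a longer window, from 250 bases before to 50 bases after the start and on both strands, CCAAT was found in 30 of the 30 tested KRAB or Zfp genes of the chromosome 2 window and 7 of 8 of the chromosome 10 window. It was found in 57.8% of the KRAB members, 34.5% of the members without KRAB and 39.2% of all 12064 protein-coding genes tested.

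Zfp433 (chr10:81540659-81562520, plus strand) was at 319, 185 and 213 normalised counts in the melatonin samples and at 2.08, 10.2 and 2.51 in the vehicle samples. Zfp781b (chr10:81737745-81766355, minus strand) was at 200, 170 and 143 with melatonin and at 2.90, 3.02 and 0 with vehicle. Gm4724 (chr2:175264093-175277600, minus strand) was at 283, 157 and 156 with melatonin and at 3.24, 0.0165 and 4e-06 with vehicle. Each of the 3 genes was thus above 140 in every melatonin sample and at 10.2 or less in every vehicle sample. Melatonin sample 1, which shared Y-linked transcripts with the vehicle samples, and had no Xist, held the highest value of all 3 genes. A fold change against such low vehicle values depends on the pseudocount and is not given.

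The 5 other members of the windows were measured in both groups. Zfp873 (chr10:81883923-81901619) was at 317, 279 and 242 normalised counts with melatonin and 204, 211 and 178.4 with vehicle, without overlap. Zfp938 (chr10:82030470-82077164) was at 366, 350 and 262 against 253, 278 and 215, and the groups overlapped. On chromosome 2, Zfp971 (62.3 to 132 with melatonin and 52.1 to 90.05 with vehicle) and Zfp931 (79.4 to 112 against 73.2 to 92.5) overlapped between groups. Zfp968-ps, which the annotation calls protein-coding despite its suffix, was lower with melatonin, at 53.2, 52.3 and 46.1 against 81.9, 82.2 and 67.6.

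Among the KRAB or Zfp genes of the chromosome 2 window that are not members, because of their symbol or their mean, the same split between groups was seen for Zfp965, Gm14308, Zfp973 and Zfp972. Zfp965 (chr2:175311778-175323964) was at 96.3, 94.6 and 93.1 normalised counts with melatonin and at 1.18, 0 and 1.22 with vehicle. Gm14308 (chr2:176305157-176328163) was at 91.5, 104 and 87.4 against 4.95, 3.75 and 6.94. At lower levels, Zfp973 was at 66.0, 23.0 and 32.6 against 0, 0.942 and 0. Zfp972 was at 14.9, 14.2 and 12.1 against 0.933, 1.87 and 0, so that it rests on few reads in both groups. In the other direction Zfp968 was at 17.4, 7.73 and 18.7 with melatonin and 26.7, 29.3 and 37.1 with vehicle, and of the 30 KRAB or Zfp genes tested in this window 22 were not called. Summed over the 30 KRAB or Zfp genes of the window that were tested, members included, the level was 2562, 2015 and 1891 with melatonin and 1591, 1710 and 1392 with vehicle, and over the 8 tested in the chromosome 10 window 1716, 1463 and 1314 against 919, 1035 and 870. The ratio of group means of these sums was 1.38 and 1.59. The sums include the genes near 0 in vehicle, and the windows were chosen with that difference known. The ratios are thus no separate result and do not describe the other genes of the windows.

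**Figure D2:**
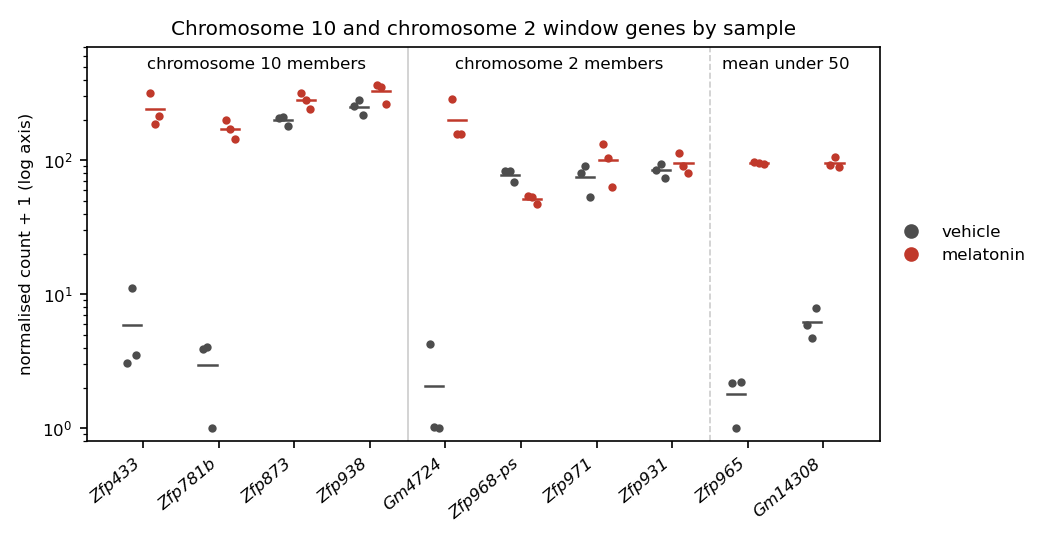
Normalised count + 1 on a log axis in each vehicle (grey) and melatonin (red) sample for the 4 members of the chromosome 10 window, the 4 of the chromosome 2 window and, right of the dashed line, 2 chromosome 2 genes with a mean under 50; short lines are means. Zfp433, Zfp781b, Gm4724, Zfp965 and Gm14308 are near the floor in vehicle and near or above 90 with melatonin, while the 5 other members are above 46 in every sample of both groups.

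The sequences of these genes limit what the counts can say of each. Cutting every transcript into 50-base words, 0% of the words of Gm4724, Zfp965 and Gm14308 were found in no other annotated gene, and all words of Gm4724 and of Gm14308 also stand in Gm11007. For Zfp433 3.64% of the words were its own, and 94.0% were shared with Gm32687. For Zfp781b 3.64% were its own, and 95.1% were shared with Gm3055, which was at 0 to 1.12 with vehicle and 5.95 to 9.33 with melatonin. The authors' quantification divides a read that fits several genes among them by estimation, so that a change of one copy and a change in how reads were divided cannot be told apart here. Gm11007 and Gm32687 were not analysed here, so that the values of Gm4724 and Zfp433 cannot be set against these copies. Of the other window members, the share of unique words was 99.4% for Zfp873 and 99.9% for Zfp938 on chromosome 10, and 57.6% for Zfp971, 47.4% for Zfp931 and 0% for Zfp968-ps on chromosome 2, so that the lower level of Zfp968-ps carries the same limit. Over all members the median share of unique words was 99.5%, and of the 220 members with at least 90% unique words 77 rose and 13 fell (median log2 fold change 0.28).

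The next largest rises were of 6 KRAB genes and of Zfp516. Zfp169 on chromosome 13 was at 144, 111 and 122 normalised counts with melatonin and 45.7, 32.8 and 45.1 with vehicle (log2 fold change 1.59 ± 0.22 SE, adjusted p = 0.000567). Zfp746, which encodes the parkin substrate PARIS, a repressor of the mitochondrial regulator PGC-1alpha, was at 1645, 1429 and 886 against 295, 481 and 660 (1.49 ± 0.30 SE, adjusted p = 0.00375). The fold changes were 3.02 and 2.81, and for Zfp746 the samples of each group were spread more widely. Zfp945 was at 162, 65.6 and 134 against 37.3, 43.1 and 38.8 (1.48 ± 0.32 SE, adjusted p = 0.0055), with melatonin sample 2 closest to the vehicle samples.

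Zfp516, the 1 gene without KRAB among the 10 largest rises, encodes an activator of the brown fat gene Ucp1 and was at 274, 179 and 202 normalised counts with melatonin and 63.5, 71.2 and 105 with vehicle (log2 fold change 1.45, adjusted p = 0.00132). Zfp963 was at 251, 233 and 215 against 92.4, 106 and 71.3 (1.38, adjusted p = 0.000472), Zfp119b at 333, 256 and 225 against 132, 120 and 92.3 (1.23, adjusted p = 0.00123), and Zfp975 at 218, 140 and 228 against 101, 84.3 and 75.2 (1.14, adjusted p = 0.00315). All 7 of these genes were called with any 1 sample left out, and a lack of overlap between groups was part of the rule that chose them. The latter 3 genes had 58.5% to 73.5% unique words, and the others at least 99.2%.

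The largest fall was of a gene without KRAB. Zfp296, a C2H2 gene best known from pluripotent cells, was at 11.2, 12.02 and 17.1 normalised counts with melatonin and 154, 169 and 132 with vehicle (log2 fold change -3.42 ± 0.25 SE, adjusted p = 3.92e-05). All of its 50-base words were unique. Zfp239 was at 61.6, 81.9 and 64.3 against 177, 158 and 151 (-1.22), Zfp770 at 29.9, 33.9 and 38.2 against 80.3, 90.9 and 67.1 (-1.20), and Zfp710 at 127, 107 and 130 against 224, 260 and 272 (-1.05), with adjusted p of 0.000829, 0.00288 and 0.000733. These 4 genes, all without KRAB, were called with any 1 sample left out.

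The next falls were smaller. Zfp217, whose human counterpart is an amplified oncogene in breast cancer, was at 107, 64.5 and 136 normalised counts with melatonin and 201, 170 and 213 with vehicle (log2 fold change -0.97, adjusted p = 0.0137), and the call was lost without vehicle sample 3. The KRAB genes Zfp940 (-0.99, adjusted p = 0.0161), Zfp995 (-0.82, adjusted p = 0.0339) and Zfp984 (-0.73, adjusted p = 0.00123) also fell, as did Zfp428 (-0.81, adjusted p = 0.0275) and Zfp628 (-0.74, adjusted p = 0.02). Of the 6 fits that leave out 1 sample, Zfp984 was called in 6, Zfp940 in 4, Zfp428 in 3, Zfp628 in 2 and Zfp995 in 1. Of the words of Zfp984, 36.9% were unique.

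**Figure D3:**
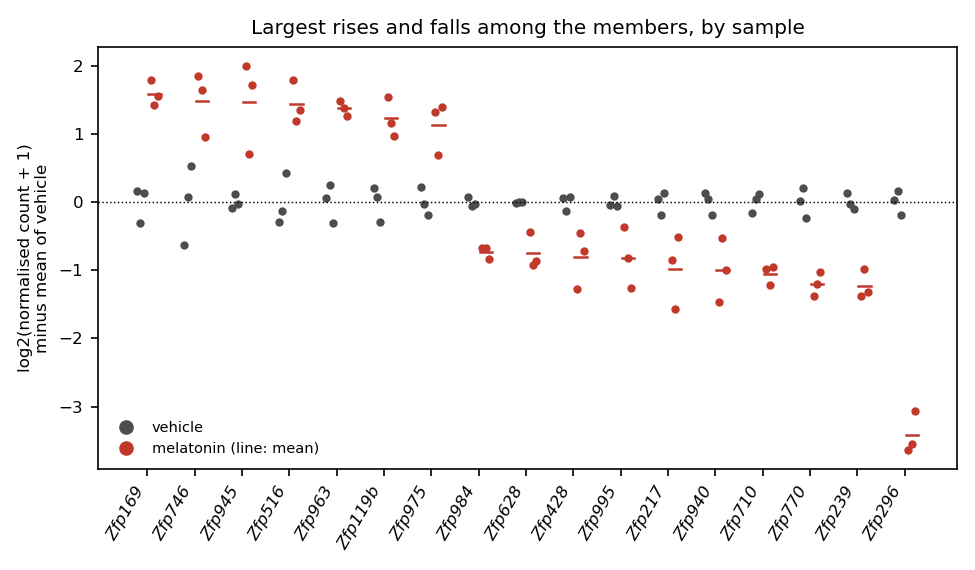
Log2(normalised count + 1) minus the mean of the vehicle samples for 7 of the 10 largest rises (left; the 3 others are the window genes near 0 in vehicle) and the 10 largest falls, with each vehicle sample in grey, each melatonin sample in red and the melatonin mean as a line. The genes were picked for calls without overlap between groups, and the lowest mean is that of Zfp296 at -3.42.

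The members were also described by position, beside the 35.5% of all members that rose, and no cluster was tested against the others. Grouping members whose starts were at most 1 Mb apart gave 15 clusters of at least 5. The cluster from Zfp160 to Zfp213 on chromosome 17 (chr17:21229165-23783215), with 17 KRAB genes, had 11 rises (64.7%) and 1 fall and a median log2 fold change of 0.60. Within it Zfp53 was at 1145, 1358 and 1249 normalised counts with melatonin and 558, 624 and 552 with vehicle (log2 fold change 1.11 ± 0.10 SE, adjusted p = 9.01e-05). Its neighbours Zfp983 (1.07), Zfp760 (1.06), Zfp943 (1.13) and Zfp213 (1.01) rose by similar amounts, whereas the nearby Zfp54 was at 373, 509 and 401 against 390, 373 and 356 (0.19, adjusted p = 0.277) and Zfp995 fell.

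The cluster from Zfp930 to Zfp866 on chromosome 8 had 3 rises among 6 members and a median of 0.73. Zfp869 was at 1503, 1357 and 1226 normalised counts with melatonin and 848, 829 and 783 with vehicle (log2 fold change 0.73, adjusted p = 0.000515), and Zfp868 rose by 0.75, while Zfp930 (-0.10) and Zfp866 (0.06) at the ends of the cluster were not called. In the 16-member cluster from Zfp712 to Zfp85 on chromosome 13, 5 rose (31.2%), 11 were not called and the median was 0.23. On chromosome 15, 4 of the 5 members from Zfp41 to Zfp7 rose and Zfp7 itself fell, from 342, 333 and 403 with vehicle to 211, 284 and 214 with melatonin (-0.61, adjusted p = 0.0104).

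Chromosome 7, with 70 members the largest share of any chromosome, had 16 rises and 7 falls and a median of 0.16. Its 5 members from Zfp628 to Zfp784, none with KRAB, had no rise and 2 falls, Zfp628 and Zfp524, and a median of -0.28. Its cluster from Zfp60 to Zfp850, 5 KRAB genes, had 3 rises and no fall and a median of 0.57. The 4 members on the X chromosome were not called (median 0.00).

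**Figure D4:**
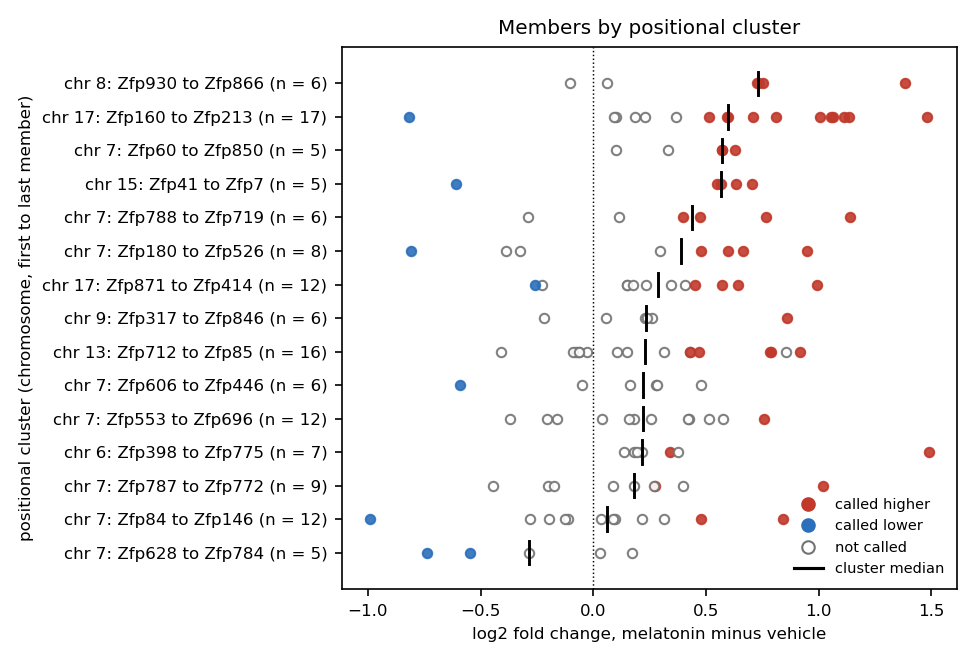
Log2 fold change (melatonin minus vehicle) of each member in the 15 positional clusters, ordered by cluster median (black line), with members called higher in red, called lower in blue and not called as open circles. The clusters on chromosomes 8 and 17 are at the top with medians of 0.73 and 0.60, and the chromosome 7 cluster without KRAB is the one with a negative median, -0.28.

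Members of known function were described by lists of 3 to 8 members, too few to be set against the 35.5% of all members and 31.0% of protein-coding genes that rose. Of the silencers of retroelements and imprinted loci, 4 of 6 were members and none was called: Zfp809, which silences murine leukaemia viruses, was at 469, 544 and 452 normalised counts with melatonin and 431, 417 and 347 with vehicle (log2 fold change 0.29, adjusted p = 0.0818), and Zfp445, which maintains imprints, at 758, 748 and 610 against 638, 590 and 689 (0.14, adjusted p = 0.348). The values of the Igf2 repressor Zfp568 (-0.11) and of Zfp932, which acts on endogenous retroviruses and had 36.8% unique words (-0.29), were below 0 with adjusted p of 0.686 and 0.106. Of the lymphocyte list, 3 of 5 were members, of which Zfp91 rose (0.35, adjusted p = 0.0441), with 64.1% unique words and called in 2 of the 6 fits that leave out 1 sample. Zfp335, needed for T cell maturation (-0.10), and Zfp131 (0.10) were not called.

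Of the promoter and enhancer factors, 8 of 10 were members, of which 3 rose and 1 fell. Zfp148, which binds GC-rich promoters, was at 2321, 2482 and 2004 normalised counts with melatonin and 1531, 1642 and 1636 with vehicle (log2 fold change 0.50, adjusted p = 0.00293). Zfp281 rose by 0.38 (adjusted p = 0.0087) and Zfp292 by 0.30 (adjusted p = 0.0431), and Zfp217 fell as given above. Zfp143, a factor of promoters and chromatin loops, was at 804, 671 and 639 against 737, 833 and 806, and the groups overlapped. Zfp652 (0.40, adjusted p = 0.0615), Zfp592 (0.22) and Zfp687 (0.07) were not called.

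Of the genes for RNA and protein handling, 6 of 6 were members, of which 3 rose and 1 fell. Zfp638, which encodes a nuclear protein that recruits silencing to unintegrated retroviral DNA, was at 1396, 1414 and 1411 normalised counts with melatonin and 1032, 1047 and 1021 with vehicle (log2 fold change 0.45 ± 0.07 SE, adjusted p = 0.00149), the 3 samples of each group lying close together. Zfp106 (0.25, adjusted p = 0.0498) and the splicing factor Zfp830 (0.29, adjusted p = 0.0456) rose by less and were each called in 1 of the 6 fits that leave out 1 sample. Zfp207, whose product BuGZ binds spindles and BUB3, fell from 6691, 6699 and 6116 with vehicle to 4961, 5016 and 5023 with melatonin (-0.38 ± 0.07 SE, adjusted p = 0.00284). Zfp598, the ubiquitin ligase of stalled ribosomes (0.48, adjusted p = 0.0646), and Zfp326 (-0.59, adjusted p = 0.0606) were not called.

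Per length of transcript, the most abundant members lacked KRAB. Zfp706, which encodes a short protein, led with 1685 normalised counts per kb with melatonin and 1563 with vehicle, followed by Zfp330 (624 and 758), Zfp511 (567 and 590), Zfp207 (421 and 547), Zfp414 (429 and 513) and Zfp622 (433 and 464), which encodes a factor of ribosome maturation. Of these 6 genes Zfp207, Zfp330 (log2 fold change -0.28, adjusted p = 0.0184) and Zfp414 (-0.26, adjusted p = 0.0408) fell, and the others were not called. Zfp330 had 67.3% and Zfp414 75.0% unique words, and the order rests on 1 reference transcript per gene.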

How the data were processed

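Bulk RNA-seq of 3 melatonin and 3 vehicle samples of sorted, cultured ILC2s was analysed. The authors worked in Partek Flow: after trimming, STAR placed reads on mm39, and they then estimated counts per Gencode gene with the Partek E/M algorithm, removed genes below 10 counts in all samples and divided by median-ratio size factors; this normalised signal is what was deposited. Among the low values, the only ones examined, 72.2% to 73.6% per sample came out as whole reads (tolerance 0.01). Whole reads were thus not recovered for all genes, and a count model was not used. Why the rest were not whole was not tested. The estimated total was 17056267 to 20511708 counts per sample, for which 1 read is worth 0.933 to 1.09 normalised counts. The table held 0 columns of unmapped samples.

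limma 3.58.1 in R 4.3.3 (lmFit, eBayes with trend) was fitted to log2(normalised count + 1) of genes with at least 10 in at least 1 sample, with treatment as the only term. Fold changes are on that scale and understate the change of low genes. "Called" means an adjusted p under 0.05. The smallest two-sided exact permutation p for 3 against 3 is 0.1, so single values were tested in the limma fit alone. The fit was tested on simulated data. Genes were named, placed and translated with GRCm39 and Gencode M39 (16334 of 16381 identifiers matched); RefSeq proteins were not used here. KRAB was called with a profile built by hmmbuild from 206 seed proteins at an E-value of 0.0001, and fingers by a pattern.

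The members and lists were chosen with earlier results of these data known. Genes named with values are the members of both windows, the 10 largest rises and 10 largest falls called without overlap, the 6 highest per kb, and members of 4 function lists; others were chosen after their values were seen. Alternatives were other pseudocounts, filters, scalings, thresholds and member limits, no trend, voom, a replicate block, a Y-linked term, length and GC corrections and leaving out each sample. Same-numbered samples correlated at -0.05, 0.01 and -0.05, so the numbers were not treated as pairs.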

Additional observations from a re-analysis of the deposited data

How the results depend on the processing

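Both the excess of rises over falls among the members and their positive median kept their direction under every alternative run. At a threshold of 0.01, 60 members rose and 7 fell, and 2188 and 2267 of all genes did. The count of members that fell was 13 with genes of a mean of at least 100, with members of a mean of at least 100 and with members of at least 90% unique words (chosen after seeing the data), and 9 to 25 with 1 sample left out, against 20 in all; it was 9 without vehicle sample 1 and 11 without vehicle sample 2 or 3. The members' median log2 fold change was 0.36 with a term for Y-linked transcripts, which leaves melatonin sample 1 to carry the contrast. Corrected for transcript length, the median was 0.15 for members without KRAB and 0.33 for Zbtb, Zscan and Zkscan genes, and 10 cofactor genes fell; corrected for GC content the KRAB median was 0.25, beside 0.245 without KRAB, so that the difference between these medians (0.34 and 0.23 uncorrected) was lost; with 1 sample left out the KRAB median was 0.26 to 0.37, and without vehicle sample 3 the medians were 0.26 and 0.22. With the replicate block, 86 members rose and 16 fell.

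In the chromosome 2 window the 1 rise became 0 with genes of a mean of at least 100 or without Gm4724, 3 with members of a mean of at least 20, and 6 with all tested KRAB or Zfp genes of the window (added after seeing the data). Its 1 fall, Zfp968-ps, became 0 with a threshold of 0.01, a gene or member mean of at least 100, quantile normalization, the replicate block, the Y-linked term or the length correction, 0 to 1 with 1 sample left out, and 2 with a mean of at least 20 or all tested genes. The cause of these changes was not tested.

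Among named genes, 6 that were not called changed sign: Zfp131 (-0.022 with the length and -0.036 with the GC correction), Zfp143 (0.023 with the Y-linked term), Zfp511 (0.13 with length, 0.075 with GC), Zfp568 (-0.29 to 0.059 with 1 sample left out), Zfp687 (-0.0087 with quantile normalization, -0.077 with length, -0.068 to 0.18 with 1 sample left out) and Zfp706 (-0.029 with length). Depth limits the window genes near 0, whose vehicle values rest on few reads.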
